A study of Mus musculus with 48 samples.

Results

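The immediate early genes of the mouse brain were followed across 24 mRNA arrays of WT and Tg2576 mice. The 10 members were Fos, Fosb, Junb, Egr1, Egr2, Npas4, Nr4a1, Arc, Btg2 and Dusp1, out of 19752 genes with a symbol on these arrays. They were selected on a pattern seen in these data, a lower level of Egr2 in the cortex of 17-month-old Tg2576 mice, together with their textbook role as early response genes. The 17-month cortex is therefore described without a test, and tests are given for whole brain and for 10-month cortex only. Each member had 1 probe on the array, so that the choice of the brightest probe of a gene changed nothing. All 10 probes were well above background on all 24 arrays, and 0 of their values were saturated.

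Tg2576 mice carry a human amyloid precursor protein gene with the Swedish mutation, driven by the hamster prion protein promoter, and deposit amyloid with age. The WT mice were labelled C57BL/6J and the transgenic mice Tg(APPSWE)2576Kha, all males. Total RNA came from cortex or from whole brain, at 10 or 17 months of age, which gave 8 groups of 3 arrays. The WT and Tg2576 animals came from different suppliers according to the study's methods, so that genotype and supplier cannot be told apart. The labels do not say whether a cortex and a whole brain came from 1 animal, nor that replicates were separate mice, and p-values then measure only the spread between these samples. The number of probes well above background lay between 34151 and 41084 of 55681 per array, and the lowest correlation between replicates of a group was 0.986 over all probes. The arrays lay on 3 slides of 8, each with its own scan time. Slide 1 held all 6 cortices of 10 months and 2 WT cortices of 17 months. Slide 2 held the third WT cortex and all 3 Tg2576 cortices of 17 months, all WT whole brains of 10 months and 1 Tg2576 whole brain of that age. Slide 3 held the remaining 8 whole brains.

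Immediate early genes are transcribed within minutes of synaptic or growth factor stimulation and need no new protein for it. Calcium and kinase signals from the synapse reach the factors CREB and SRF, which bind cAMP response elements (CREs) and CArG boxes near the start of these genes. Fos, Fosb and Junb encode subunits of the AP-1 transcription factor, Egr1 and Egr2 zinc finger factors, Nr4a1 an orphan nuclear receptor, and Npas4 a factor induced by calcium entry in neurons. Arc encodes a protein of excitatory synapses that takes part in the endocytosis of AMPA receptors. Btg2 encodes an antiproliferative cofactor, and Dusp1 a phosphatase that switches off MAP kinases.

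The stretch of 250 bases before the transcription start is shown for the members whose group differences and covariation are described in detail, as listed by RefSeq on build GRCm38.p6. A promoter was listed for 8 of the 10 members, and Arc and Egr1 had none in the table used here. For Egr2, which had 5 listed starts, the one farthest downstream was taken. Capitals mark the CRE core, TGACG or its complement CGTCA, the full CRE TGACGTCA, which holds both overlapping cores, and CArG boxes.
Fos, chr12:85473640-85473889, plus strand: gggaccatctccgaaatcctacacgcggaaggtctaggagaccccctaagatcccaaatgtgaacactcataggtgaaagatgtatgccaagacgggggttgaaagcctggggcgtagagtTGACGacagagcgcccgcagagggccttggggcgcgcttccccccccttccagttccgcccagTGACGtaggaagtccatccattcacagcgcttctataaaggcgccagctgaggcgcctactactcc
Junb, chr8:84978749-84978998, minus strand: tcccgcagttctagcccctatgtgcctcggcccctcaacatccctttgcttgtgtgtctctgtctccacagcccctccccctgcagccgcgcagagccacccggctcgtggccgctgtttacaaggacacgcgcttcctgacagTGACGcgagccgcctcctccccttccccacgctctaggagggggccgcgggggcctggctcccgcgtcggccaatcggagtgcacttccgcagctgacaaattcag
Egr2, chr10:67537680-67537929, plus strand: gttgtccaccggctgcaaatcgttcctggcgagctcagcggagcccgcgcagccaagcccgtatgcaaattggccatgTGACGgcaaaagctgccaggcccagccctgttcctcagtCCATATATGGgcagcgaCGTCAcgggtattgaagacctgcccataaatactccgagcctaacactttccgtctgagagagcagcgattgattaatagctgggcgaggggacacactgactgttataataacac
Npas4, chr19:4989972-4990221, minus strand: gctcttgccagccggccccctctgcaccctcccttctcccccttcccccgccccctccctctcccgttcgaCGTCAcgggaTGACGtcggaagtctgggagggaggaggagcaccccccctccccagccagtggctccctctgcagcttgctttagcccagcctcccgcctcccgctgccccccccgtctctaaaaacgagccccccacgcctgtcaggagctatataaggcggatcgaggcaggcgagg
Dusp1, chr17:26508473-26508722, minus strand: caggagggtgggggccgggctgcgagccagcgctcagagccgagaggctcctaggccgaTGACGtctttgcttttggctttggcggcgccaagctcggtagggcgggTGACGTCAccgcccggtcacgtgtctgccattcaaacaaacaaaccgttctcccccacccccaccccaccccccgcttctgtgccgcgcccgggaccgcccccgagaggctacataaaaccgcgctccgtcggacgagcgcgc

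All 8 listed members held at least 1 CRE core in these 250 bases, against 17.8% of the 32851 mouse promoter windows of the same length. The cores numbered 2 in Fos, 1 in Junb, 2 in Egr2, 2 in Npas4 and 3 in Dusp1, of which 2 in Dusp1 overlap within 1 full CRE. Nr4a1 held 4, Btg2 2 and Fosb 1. A full CRE was found in Btg2 and Dusp1, 2 of 8 members, and in 1.55% of all windows. A CArG box was found in Egr2 only among the 8, and in 1.47% of all windows. A zinc finger EGR site, searched on both strands as GCGTGGGCG or GCGGGGGCG, was found in Fosb and Nr4a1 and in 3.06% of all windows. A match describes the letters in this window and not the binding of a factor. Bases farther upstream were not searched, so that a motif missing here may lie outside the window.

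Values are given as the log2 intensity of a probe minus the 75th percentile of its array, so that a value of 0 lies at that percentile and a difference of 1 is a doubling. Levels of different genes are not compared, since each rests on a different probe. The plot of member values gives the group means. Those of Fos, Junb, Egr1, Egr2, Nr4a1, Arc, Btg2 and Dusp1 were lower in Tg2576 than in WT mice in both tissues at both ages. For Fos, Egr2, Arc and Dusp1, all 12 Tg2576 arrays also lay below the median of the 12 WT arrays.

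**Figure D1:**
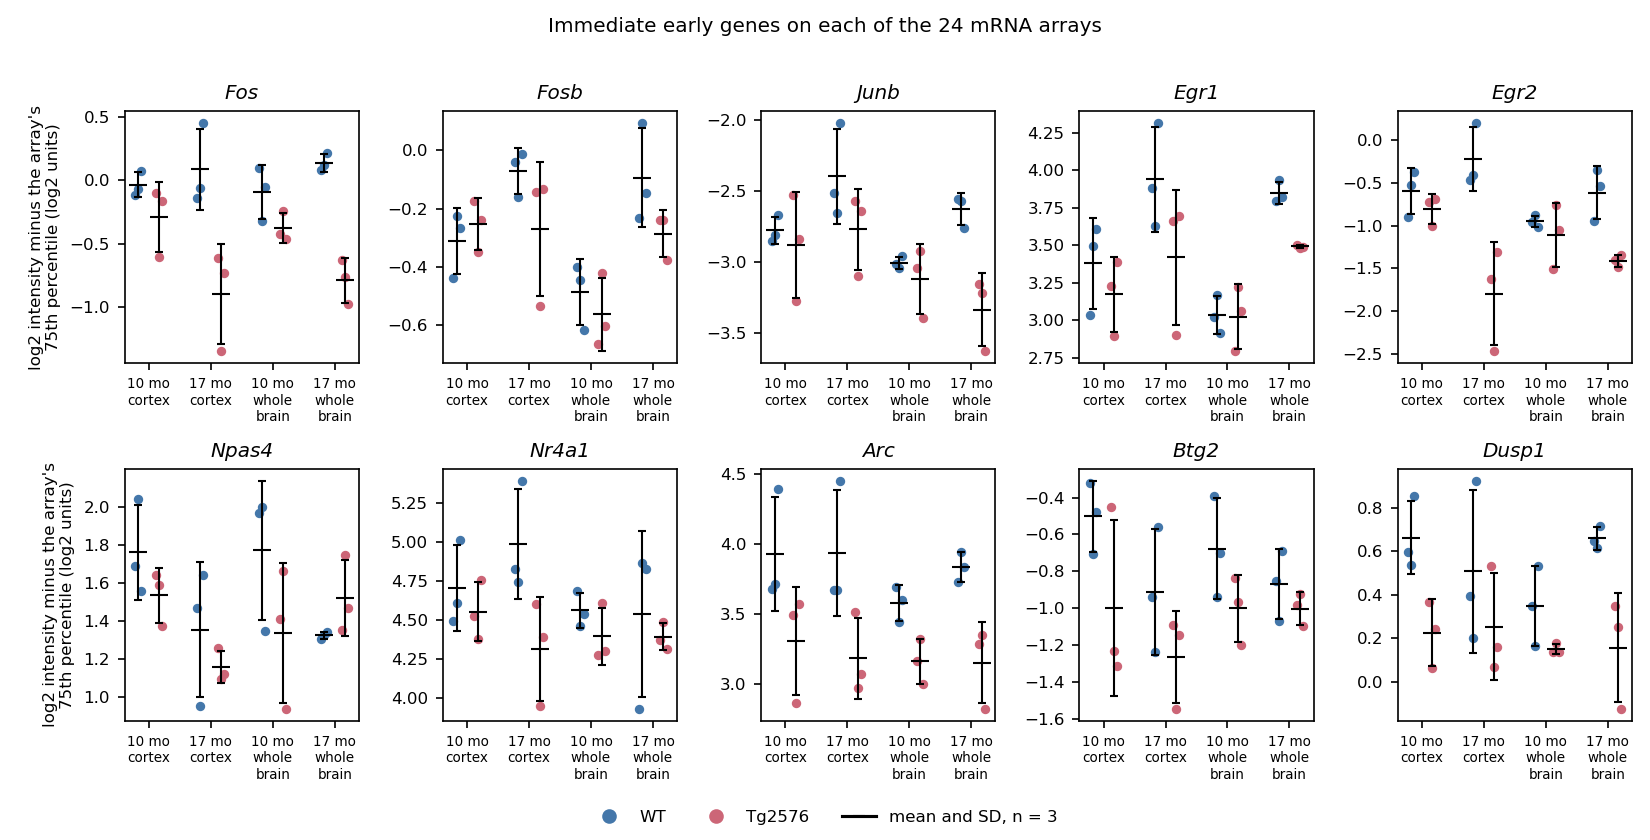
Each panel plots 1 immediate early gene, with its log2 intensity minus the array's 75th percentile on the vertical axis and age and tissue on the horizontal axis. Points are arrays (blue WT, red Tg2576), and black marks give the mean and SD of 3 arrays. The 12 Tg2576 arrays of Arc lie between 2.82 and 3.57 and the 12 WT arrays between 3.44 and 4.45.

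Arc gave 3.44 to 4.45 with a median of 3.70 over the WT arrays and 2.82 to 3.57 with a median of 3.22 over the Tg2576 arrays. Of the 12 Tg2576 arrays, 9 were below the lowest WT array. Fos ranged from -0.32 to 0.45 in WT, with a median of 0.012, and from -1.35 to -0.10 in Tg2576, with a median of -0.61. Here too 9 Tg2576 arrays were below the lowest WT array. Egr2 ranged from -1.02 to 0.20 in WT and from -2.47 to -0.69 in Tg2576, and 8 Tg2576 arrays were below every WT array. For Nr4a1 the count was 0, because the lowest of all its 24 values came from a WT whole brain of 17 months. These counts include the 17-month cortices and are a description, and the shares of all probes with such counts were not computed.

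Ordered by group mean, the 4 WT groups held the first 4 places for Fos, Arc, Btg2 and Dusp1. The share of all probes with such an order was not computed, and the 17-month cortices are part of it. The order of Arc ran from WT cortex at 17 months (3.93 ± 0.45, SD, n = 3) over WT cortex at 10 months (3.93 ± 0.40), WT whole brain at 17 months (3.84 ± 0.11) and at 10 months (3.58 ± 0.13) to the Tg2576 groups, which lay between 3.15 and 3.31. Of its 7 steps between neighbours, 1 exceeded the pooled SD of the neighbours, that between the WT whole brains of 17 and 10 months. Egr2 had 3 such steps of 7, the most among the members, and its order began with WT cortex at 17 months (-0.23 ± 0.37) and ended with Tg2576 cortex at 17 months (-1.80 ± 0.60). For Dusp1, Junb and Nr4a1 the count was 0 of 7, so that no neighbouring groups were separated by more than their spread. Npas4 was ordered differently, with both WT groups of 10 months first (1.77 ± 0.37 in whole brain and 1.76 ± 0.25 in cortex).

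In the cortex at 17 months, all 10 members had a lower mean in Tg2576 than in WT mice. Egr2, a zinc finger factor also known from the myelination of peripheral nerves, gave -0.46, -0.41 and 0.20 in the WT cortices and -1.62, -2.47 and -1.31 in the Tg2576 cortices. The genotypes did not overlap and were separated by 0.84 at the closest arrays. The difference of means was -1.57, or 2.97-fold, and stood 18th from the largest decrease among 38889 probes. Since the members were chosen on this decrease of Egr2, nothing is read from its rank. Fos gave -0.14, -0.06 and 0.45 in WT and -0.61, -1.35 and -0.73 in Tg2576 mice. Its difference was -0.98, or 1.98-fold, again without overlap. Arc gave 3.67, 3.67 and 4.45 against 3.51, 2.97 and 3.07, a difference of -0.75, and Nr4a1 gave 4.83, 4.74 and 5.39 against 4.60, 3.95 and 4.39, a difference of -0.67.

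These 4 genes were the members whose genotypes did not overlap, 4 of 10, where 7.2% of all probes were lower in Tg2576 without overlap. Since the choice of the members used this comparison, nothing is read from that count. The other 6 differences lay between -0.52 for Egr1 and -0.20 for Npas4, and their genotypes overlapped. The third WT cortex was the highest of all 24 arrays for 7 members, namely Fos, Junb, Egr1, Egr2, Nr4a1, Arc and Dusp1. It also had the highest 75th percentile of intensity of all arrays, 824, and the part of this in its values was not tested. The second Tg2576 cortex was the lowest of all for Fos, Egr2 and Btg2. Without that WT array the median difference of the members went from -0.45 to -0.26, and without that Tg2576 array to -0.24, while all 10 differences stayed below 0. Egr2 kept -1.36 and -1.24 in these cases. The third WT cortex was the only WT cortex on the slide of the 17-month Tg2576 cortices, and against it alone the differences of the 10 members lay between -1.99 and -0.26.

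Markers of other cells moved in these cortices as well. The mean of 10 markers of cortical excitatory neurons was 0.50, 0.31 and 0.78 in WT and 0.62, 0.35 and 0.54 in Tg2576 mice, so that the genotypes overlapped and the third WT cortex was highest here too. The mean of 10 choroid plexus markers lay between -0.90 and -0.26 in WT and between -0.09 and 0.60 in Tg2576 mice. That of 8 microglial markers lay between 0.32 and 0.46 in WT and between 0.58 and 1.13 in Tg2576 mice. The microglial markers did not move as a set: 3 of 8 had a lower mean in Tg2576, 3 were higher without overlap, and the median difference was 0.056. All 10 thalamus markers had a higher mean in Tg2576, with a median difference of 0.49. The second WT cortex stood apart in its cerebellar markers, with a mean of -1.13 beside -3.69 and -3.57. Fewer cells of a type and less RNA per cell cannot be told apart in such bulk tissue, and the part of these markers in the levels of the immediate early genes was not tested.

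Whole brain at 17 months gave a test of the genotype difference at the same age, on arrays other than those of the 17-month cortex. All 6 arrays lay on 1 slide. No member passed limma's test after Benjamini-Hochberg adjustment, nor did any of the 36978 probes tested (0% called in either direction and 0% lower), although 4803 probes had an unadjusted p under 0.05. Of all probes, 47.2% had a lower mean in Tg2576 mice, with a median difference of 0.011. Among the members, 9 of 10 had a lower mean, with a median difference of -0.43. For 7 of them the genotypes did not overlap, where 9.26% of all probes were lower without overlap, and 6 had an unadjusted p under 0.05.

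Fos gave 0.08, 0.12 and 0.22 in WT and -0.63, -0.76 and -0.98 in Tg2576 whole brains. All Tg2576 arrays were low, and the difference was -0.93 ± 0.11 (SE, n = 3 against 3), or 1.90-fold, with a 95% interval of -1.18 to -0.67 (limma, adjusted p = 0.34). Junb, its partner in AP-1, gave -2.55, -2.57 and -2.76 against -3.16, -3.22 and -3.63. The difference was -0.71 ± 0.14 and the groups did not overlap. The Junb probe was dim, with intensities of 95 to 128 in WT and 41 to 66 in Tg2576 whole brains. Over the alternatives that kept all arrays, its difference ran from -0.75 to -0.28. Fosb, the third AP-1 subunit, gave -0.23, 0.10 and -0.15 against -0.24, -0.24 and -0.38, with a difference of -0.19 ± 0.10. Its lowest WT array lay just above the highest Tg2576 arrays, and its interval of -0.45 to 0.062 included 0.

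Both EGR factors were low on all Tg2576 arrays. Egr2 gave -0.95, -0.35 and -0.54 in WT and -1.41, -1.49 and -1.34 in Tg2576 whole brains, with a difference of -0.80 ± 0.16, or 1.74-fold. Egr1 gave 3.80, 3.94 and 3.82 against 3.51, 3.48 and 3.49. The spread among its Tg2576 arrays was small (SD 0.011), and the difference of -0.36 ± 0.068 corresponded to 1.28-fold. Arc gave 3.73, 3.95 and 3.83 against 3.28, 3.35 and 2.82, with a difference of -0.68 ± 0.15. Dusp1 gave 0.65, 0.61 and 0.72 against 0.35, 0.25 and -0.13, with a difference of -0.50 ± 0.13. The third Tg2576 whole brain was the lowest of all 24 arrays for Junb, Arc and Dusp1. It also had the lowest 75th percentile of intensity of all arrays. Before scaling, that percentile was 739, 761 and 642 on the WT arrays and 574, 612 and 507 on the Tg2576 arrays, without overlap. The part of this array brightness in the member values was not tested.

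The other 3 members did not share this pattern. Npas4 was higher on all Tg2576 arrays (1.35, 1.75 and 1.47) than on the WT arrays (1.31, 1.33 and 1.34), where 12.8% of all probes were higher without overlap, with a difference of 0.20 ± 0.11 and an interval of -0.073 to 0.46. Nr4a1 had 1 low WT array (3.93 beside 4.87 and 4.83), overlapping groups and a difference of -0.15 ± 0.26. Without the second WT array, that difference turned to 0.015. Btg2 overlapped as well, with a difference of -0.13 ± 0.11. At the study's own thresholds, an unpaired test with an unadjusted p under 0.05 and a change over 1.5-fold, 4 members passed (Fos, Junb, Egr2 and Arc, all lower in Tg2576), beside 0.955% of all probes. After adjustment 0 members passed that test.

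**Figure D2:**
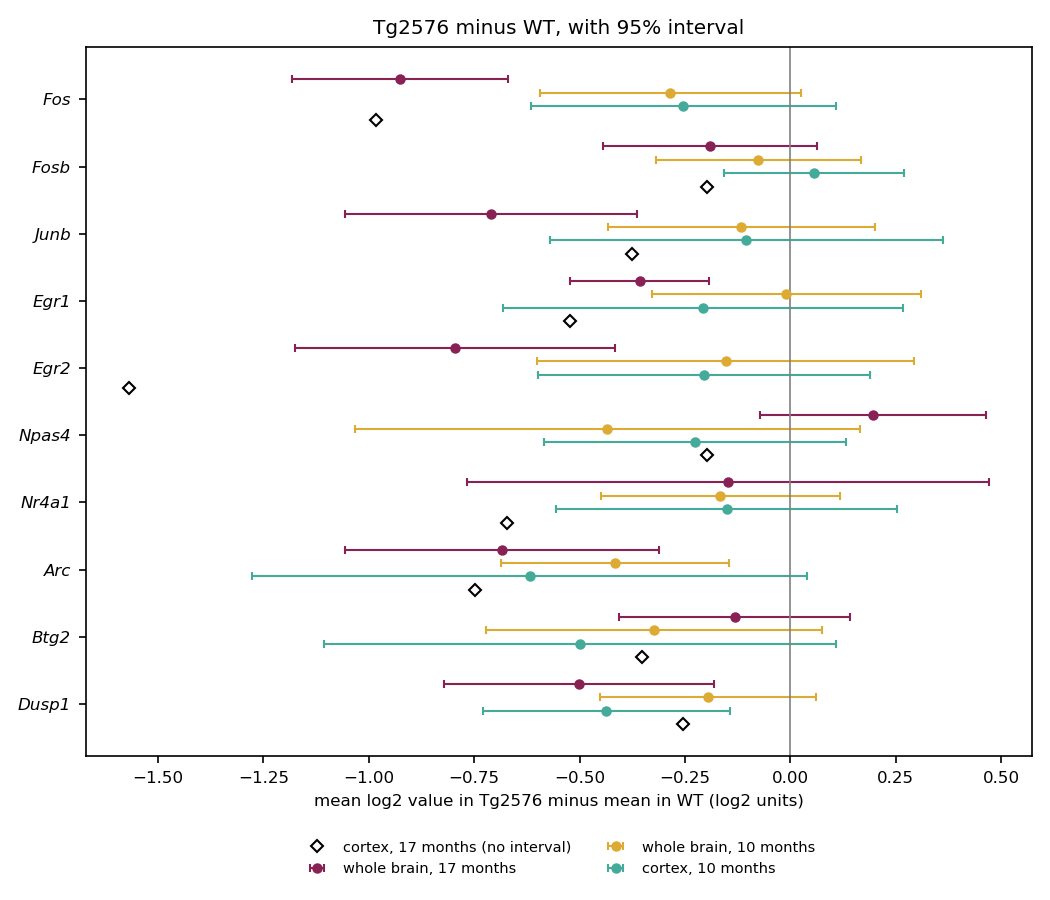
The horizontal axis gives the mean log2 value in Tg2576 minus that in WT mice, and each row is 1 immediate early gene. Filled points with bars are limma estimates with 95% intervals for whole brain at 17 months, whole brain at 10 months and cortex at 10 months, and open diamonds are the 17-month cortex, shown without an interval. In whole brain at 17 months the points of Fos, Junb, Egr1, Egr2, Arc and Dusp1 lie at -0.36 or below with intervals that end below 0.

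Markers of brain regions also differed between these whole brains. The mean of 10 cerebellar markers was -1.83, -1.14 and -0.38 in WT and -2.28, -3.21 and -2.09 in Tg2576 mice, lower on every Tg2576 array. Of these, 9 were tested, with a median difference of -1.32 and 6 at an unadjusted p under 0.05. Well above background were 9 of the 10 on each WT array and 6 to 8 on the Tg2576 arrays. The mean of the 10 markers of cortical excitatory neurons was 0.30, 0.43 and 0.23 in WT and 0.38, 0.45 and 0.37 in Tg2576 mice, and thus was not lower in Tg2576. Microglial markers lay between 0.44 and 0.52 in WT and between 0.87 and 1.22 in Tg2576 mice, with 5 of 8 higher and 1 lower at an unadjusted p under 0.05. Of 10 oligodendrocyte markers, 6 were lower at such a p, with a median difference of -0.25. The mean of 10 hippocampal markers was also lower on every Tg2576 array (-1.87, -1.66 and -1.76) than on the WT arrays (-1.55, -1.49 and -1.44). The part of the cerebellar, hippocampal, microglial and oligodendrocyte markers in the result was not tested.

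At 10 months no member passed the test in either tissue, with 0% of the probes called in cortex and 0% in whole brain (3942 and 4328 at an unadjusted p under 0.05). In cortex, 9 of 10 members had a lower mean in Tg2576 mice, with a median difference of -0.22. Of all probes, 48.3% had a lower mean. Arc, the effector of excitatory synapses, gave 3.68, 3.71 and 4.39 in WT and 3.49, 2.86 and 3.57 in Tg2576 cortices. The difference was -0.62 ± 0.27 (adjusted p = 0.51). Dusp1 gave 0.60, 0.54 and 0.85 against 0.37, 0.06 and 0.24, with a difference of -0.44 ± 0.12. These were the 2 members without overlap, beside 8.94% of all probes lower without overlap. Egr2 differed by -0.21 ± 0.16 and Fos by -0.25 ± 0.15, each with an interval that included 0. Fosb was the member with the higher mean in Tg2576, by 0.056 ± 0.087. All 10 olfactory bulb markers were higher in the Tg2576 cortices of 10 months at an unadjusted p under 0.05. Their mean was -0.27, -0.76 and -1.10 in WT and 1.75, 1.91 and 0.20 in Tg2576 mice, and the 2 genotypes did not overlap. Nor did they in the mean of the cerebellar markers (-4.14 to -2.99 in WT and -2.76 to -2.58 in Tg2576) or of the vessel wall markers (0.13 to 0.22 and -0.053 to 0.075). Per array only 6 to 8 of the 10 cerebellar markers were well above background in either genotype, so that their means include values near the background. The part of these markers in the member values was not tested.

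In whole brain at 10 months, all 10 members had a lower mean in Tg2576 mice, with a median difference of -0.18. Of all probes, 50.7% had a lower mean. The members varied together from array to array, so that their directions are not independent. Arc gave 3.69, 3.44 and 3.60 in WT and 3.16, 3.32 and 3.00 in Tg2576 whole brains, with a difference of -0.42 ± 0.11 and an interval of -0.69 to -0.15 (adjusted p = 0.43). It was the 1 member without overlap, where 9.01% of all probes were lower without overlap. Npas4 had a difference of similar size, -0.43 ± 0.25, but the third array was low in both genotypes (1.35 in WT and 0.94 in Tg2576). Egr1 differed by -0.0097 ± 0.13. Only the first Tg2576 array shared a slide with the WT arrays, and against them it was lower for all 10 members, by -0.55 to -0.035. With slide as a block the median difference was -0.26 and 0 members passed. The mean of the microglial markers lay between 0.060 and 0.17 in WT and between 0.21 and 0.38 in Tg2576 mice, and that of the cortical excitatory neuron markers between 0.24 and 0.26 and between 0.27 and 0.39, and their part in the result was not tested.

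Arc had a lower mean in Tg2576 mice in all 4 combinations of tissue and age, each time without overlap. The differences were -0.62 and -0.42 in cortex and whole brain at 10 months, and -0.75 and -0.68 at 17 months. Taken singly, these comparisons had 8.94%, 9.01%, 7.2% and 9.26% of all probes lower without overlap. The share in all 4 together was not computed. Fos went from -0.25 and -0.28 at 10 months to -0.98 and -0.93 at 17 months. Egr2 went from -0.21 and -0.15 to -1.57 and -0.80. The 17-month cortex values belong to the comparison that the choice of the members used, and are a description. The difference between ages was tested in whole brain, where the genotype difference of Fos at 17 months minus that at 10 months was -0.64 ± 0.17, of Egr2 -0.64 ± 0.26 and of Junb -0.59 ± 0.20. None passed (limma interaction, smallest adjusted p of a member = 0.19), and 0% of the 38478 probes did, with 6448 at an unadjusted p under 0.05. Egr1, with -0.35 ± 0.15, was the fourth member with an unadjusted p under 0.05. With slide as a block, 2 members had such a p. Over the alternatives that kept all arrays, the interaction of Junb ran from -0.68 to -0.14. For Arc the interval of the interaction ran from -0.71 to 0.18 and for Nr4a1 from -0.66 to 0.70. At 10 months the genotype difference in cortex minus that in whole brain was between -0.24 and 0.21 for all members, and 0% of the 39957 probes passed (4358 at an unadjusted p under 0.05).

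Between 10 and 17 months, 3 members rose in WT whole brain. Egr1 gave 3.02, 3.17 and 2.91 at 10 months and 3.80, 3.94 and 3.82 at 17 months, a rise of 0.82 ± 0.088, or 1.76-fold (limma, adjusted p = 0.0047). Fosb gave -0.40, -0.45 and -0.62 against -0.23, 0.10 and -0.15 and rose by 0.39 ± 0.11 (adjusted p = 0.043). Junb gave -3.01, -3.04 and -2.96 against -2.55, -2.57 and -2.76 and rose by 0.38 ± 0.078 (adjusted p = 0.019). In all 3 the ages did not overlap, as for 21.7% of all probes that were higher without overlap. The 3 of 10 members called stand beside 12.7% of all probes called higher, and 27.8% were called in either direction. All 10-month WT whole brains lay on slide 2 and all 17-month ones on slide 3, so that age and slide cannot be told apart. Egr1 remained called in all 16 alternatives run, while Fosb was called in 7 and Junb in 9 of them. Over those that kept all arrays, the rise of Junb, a dim probe, ran from 0.15 to 0.47. With no filter and with the replicate block, Egr1 was the 1 member called. The means of 7 marker lists also did not overlap between these ages. Oligodendrocyte markers went from between 2.99 and 3.16 to between 3.31 and 3.39, microglial markers from between 0.060 and 0.17 to between 0.44 and 0.52, and vessel wall markers from between -0.14 and 0.080 to between 0.26 and 0.44. Hippocampal, thalamic and astrocyte markers were likewise higher on every 17-month array, while blood markers were lower (0.45 to 1.39 at 10 months and -0.078 to 0.14 at 17 months). The cerebellar markers had a median difference of 0.87, but their means overlapped. The part of these markers in the result was not tested.

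Dusp1 and Arc were higher at 17 months on every WT array, by 0.31 ± 0.10 and 0.26 ± 0.094, and did not pass (adjusted p = 0.070 and 0.088). Npas4 was lower on every 17-month array, at -0.45 ± 0.18 (adjusted p = 0.11), where 27.2% of all probes were lower without overlap. In Tg2576 whole brain no member passed, where 12.1% of all probes were called, 6.58% higher and 5.55% lower. Egr1 was higher at 17 months by 0.47 ± 0.12 (adjusted p = 0.055), with 2.79, 3.22 and 3.06 at 10 months and 3.51, 3.48 and 3.49 at 17 months. Fos was lower by -0.41 ± 0.12 (adjusted p = 0.070), with -0.43, -0.24 and -0.46 against -0.63, -0.76 and -0.98. The ages did not overlap for either gene, where 18.5% of all probes were higher and 20.1% lower without overlap. The means of the microglial, astrocyte, striatal, thalamic and vessel wall markers were higher on every 17-month Tg2576 array, and their part in the result was not tested. Within slide 3, which held 2 of the 10-month arrays, the differences of these genes were 0.35 and -0.44. Both genes passed under 3 of the 17 alternatives. The WT and Tg2576 age differences and the genotype differences in whole brain share arrays, so that they are given side by side and are not independent.

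**Figure D3:**
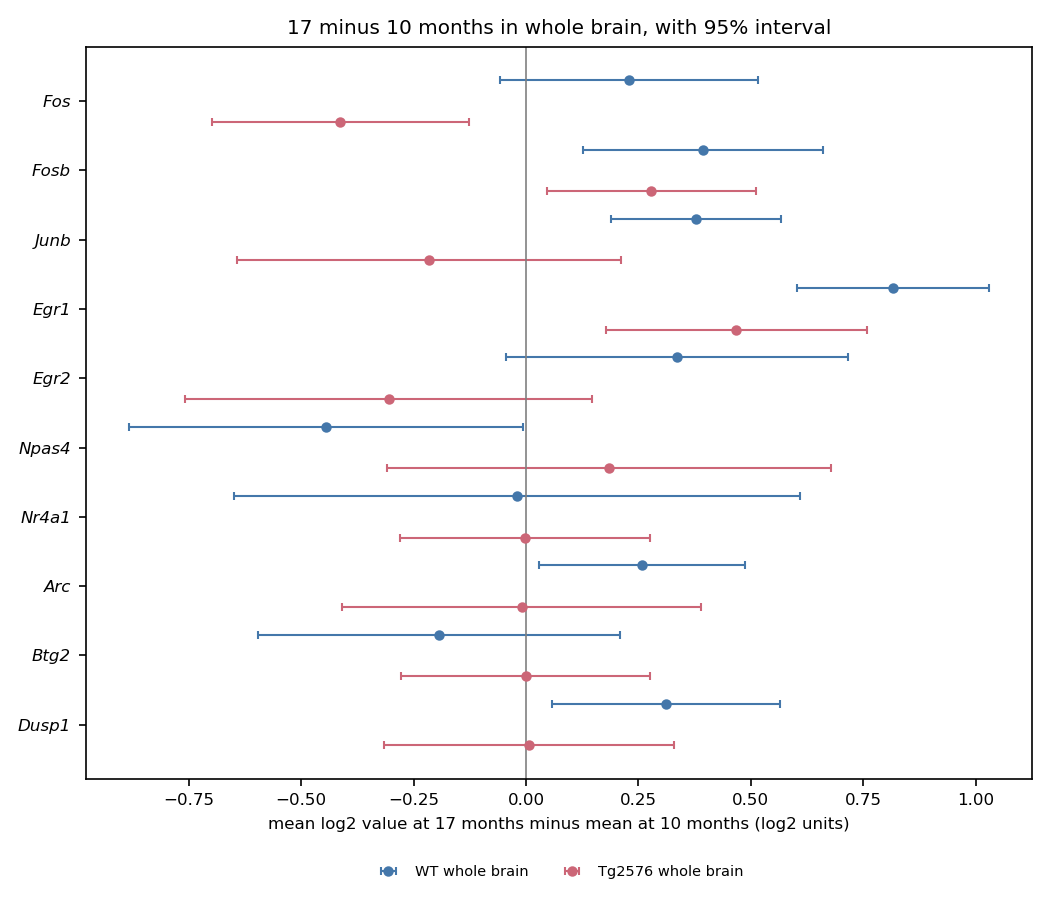
The horizontal axis gives the mean log2 value at 17 months minus that at 10 months in whole brain, with 95% intervals from limma, for WT (blue) and Tg2576 (red) mice. Each row is 1 immediate early gene. Egr1 stands highest in both genotypes, at 0.82 and 0.47, and Fos lies at 0.23 in WT and -0.41 in Tg2576 mice.

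In cortex the same ages are described without a test. Egr1, Fosb and Junb were higher in WT cortex at 17 months on every array, by 0.56, 0.24 and 0.38, where 16.3% of all probes were higher without overlap. In Tg2576 cortex Egr2, Fos and Npas4 were lower at 17 months on every array, by -0.99, -0.61 and -0.38, where 19% of all probes were lower without overlap. Both counts are 3 of 10 members, and nothing is read from them. Between cortex and whole brain at 10 months no member passed in either genotype, beside 0.0101% of the probes called in WT and 0% in Tg2576 mice (9374 and 8841 at an unadjusted p under 0.05). The cortex minus whole brain differences lay between -0.0095 and 0.35 in WT and between 0.0016 and 0.31 in Tg2576 mice. No slide held both tissues of 10-month WT mice or of 10-month Tg2576 mice, so that slide and tissue cannot be told apart in either genotype.

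The members varied together from array to array. After the mean of each group was subtracted, all 45 pairs of members had a correlation above 0 over the 24 arrays, with a median r of 0.61 and 28 pairs above 0.5. The closest pair was Egr1 and Egr2 (r = 0.90), followed by Arc and Dusp1 (0.86) and Fos and Junb (0.83). These points share arrays, slides and group means, and the correlations are descriptions. The same counts for pairs of other genes were not computed. Against the mean of the other 9 members, Fos had the highest r (0.89), then Junb (0.83), Arc (0.81), Egr1 (0.80), Nr4a1 and Fosb (both 0.75), Dusp1 (0.74), Egr2 (0.72), Btg2 (0.54) and Npas4 (0.32). Spearman's rho was 0.87 for Fos and 0.32 for Npas4.

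Without the 2 arrays farthest from the median, r was 0.83 for Fos, 0.59 for Egr2, 0.40 for Btg2 and 0.22 for Npas4. Without the 6 cortex arrays of 17 months, the 10 values ran from 0.097 for Npas4 to 0.81 for Arc. Their median was then 0.58, beside 0.75 over all 24 arrays. Without the 2 groups that span slides, Npas4 had an r of 0.0088 and the median of the 10 was 0.72. The mean of the 10 members deviated most on 2 arrays of the 17-month cortex, by 0.36 on the third WT array, where all 10 members stood above their group mean, and by -0.33 on the second Tg2576 array, where 0 did. In whole brain the deviations stayed between -0.13 and 0.18.

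**Figure D4:**
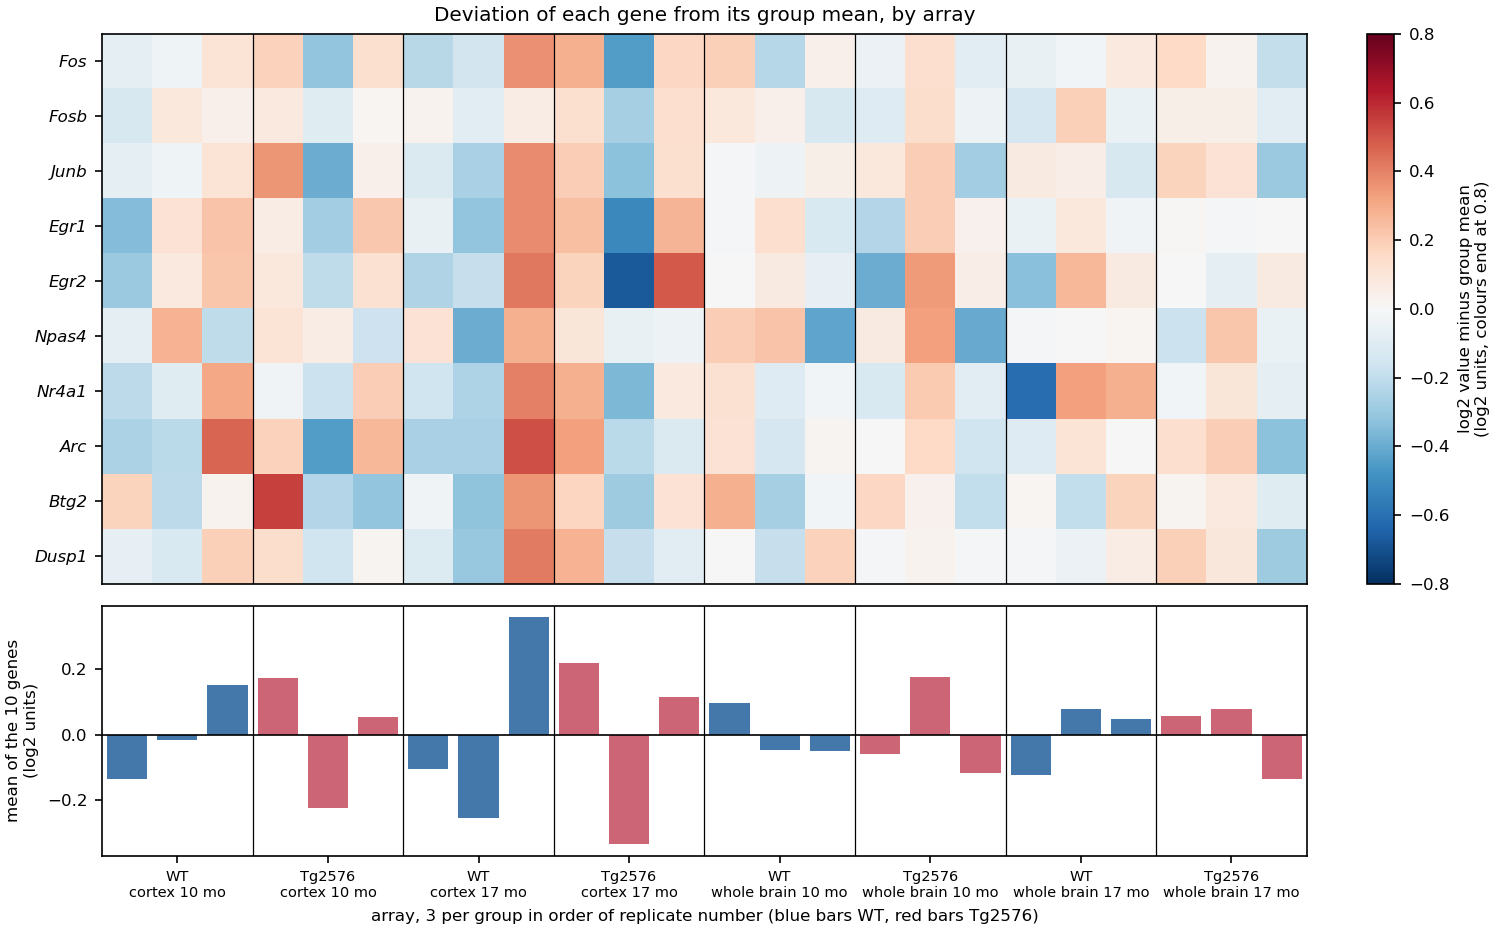
The upper panel colours each of the 10 immediate early genes on each of the 24 arrays by its log2 value minus its group mean, red above and blue below. The lower panel gives the mean of the 10 genes per array on the same scale. The third WT cortex of 17 months stands at 0.36 and the second Tg2576 cortex at -0.33.

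Among 14573 other genes well above background on all arrays, the correlation with the mean of the 10 members had a median of 0.062, and 11.6% lay above 0.5. The 10 genes most like the members were 1110008P14Rik (r = 0.90), Cplx3 (0.89), Tmem121b, Gle1, Emx1, Arnt2, Ext1, Riox1, Ninl and Hs3st2 (0.86). Cplx3 encodes a complexin of the synaptic release machinery, and Emx1 is a homeobox factor of the dorsal telencephalon. Of the cortical excitatory neuron markers, 7 of 10 had an r above 0.5, among them Lamp5 (0.84) and Slc17a7 (0.77), a vesicular glutamate transporter. The others had a negative r, namely Rorb (-0.085), Rasgrf2 (-0.13) and Foxp2 (-0.34), and the list's median was 0.69. Thalamus markers had a median of -0.53, choroid plexus markers -0.40 and cerebellar markers -0.36. The remaining marker lists lay between, with medians of -0.35 for astrocytes, -0.26 for hippocampus, -0.25 for oligodendrocytes, -0.070 for the vessel wall, 0.034 for striatum, 0.035 for the olfactory bulb, 0.20 for microglia and 0.28 for blood. The markers of cortical excitatory neurons were thus split, and since the 7 were picked by their r, nothing further is read from them. The part of the members and of these markers in each other was not tested.

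**Figure D5:**
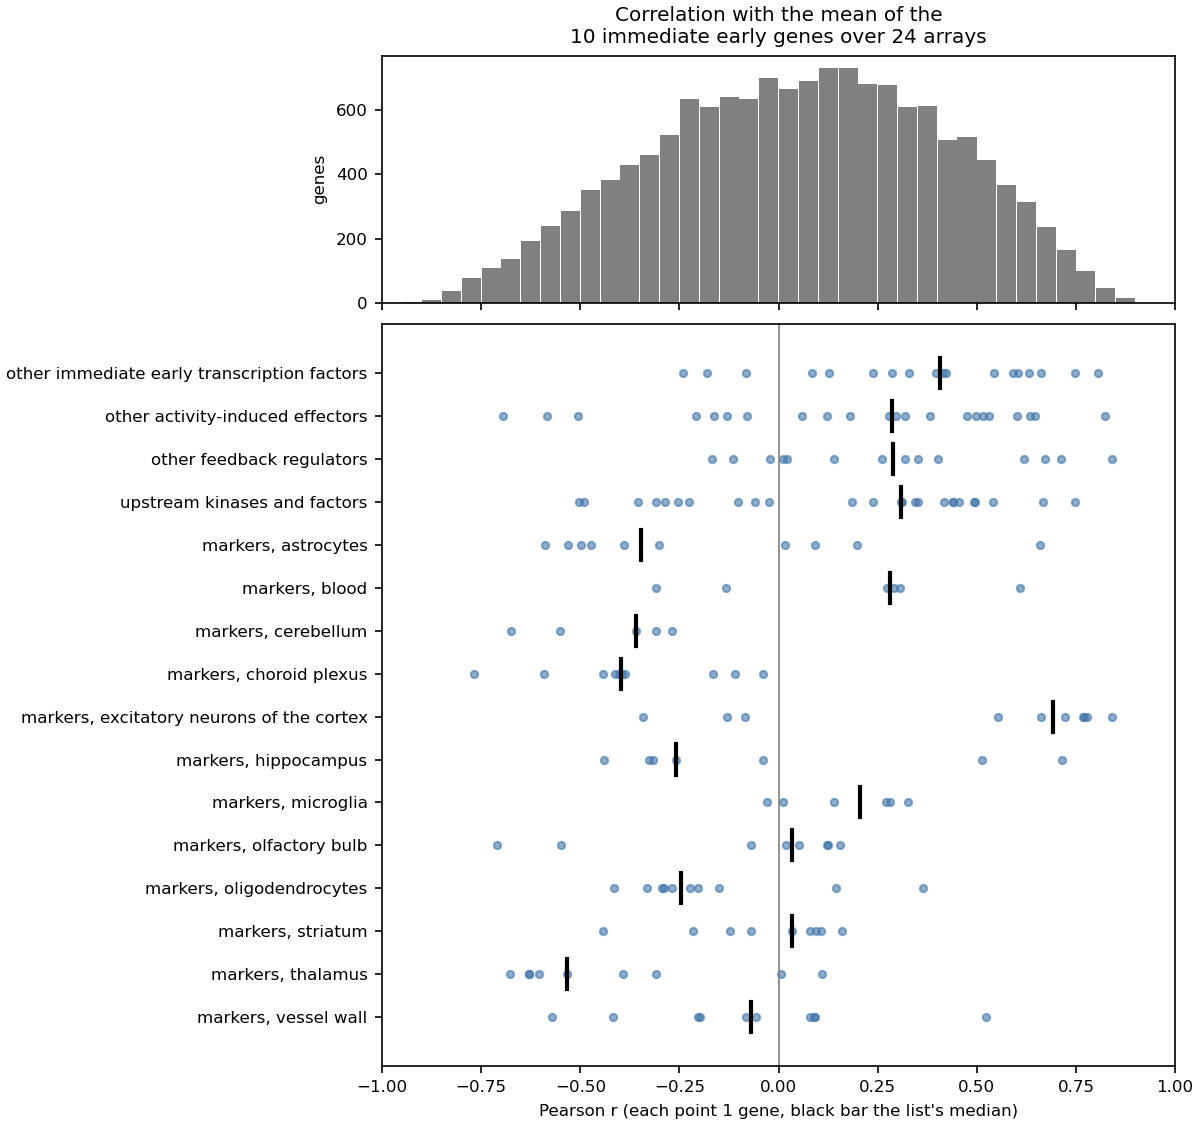
The upper panel counts 14573 genes by their Pearson correlation with the mean of the 10 immediate early genes over 24 arrays, group means removed. The lower panel shows the same value for the genes of each list, with the list's median as a black bar. The median is 0.69 for markers of cortical excitatory neurons, 0.41 for other immediate early transcription factors and -0.53 for thalamus markers.

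Other genes of the same response were described with the same measure. The other immediate early transcription factors had a median r of 0.41 over 18 genes, headed by Egr4 (0.80), a zinc finger factor of the EGR family, and Nr4a2 (0.75). Other activity-induced effectors had a median of 0.29 over 22 genes, with Trib1 at 0.82, and other feedback regulators 0.29 over 14 genes, with Dusp14 at 0.84. Upstream kinases and factors had a median of 0.31 over 25 genes, with Mef2d at 0.75.

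In whole brain at 17 months, no gene of these 4 lists passed the test between genotypes, as no probe did. At an unadjusted p under 0.05, 5 other transcription factors were lower and 1 was higher in Tg2576 mice out of 20, 4 effectors were lower and 0 higher out of 22, and 2 feedback regulators were lower and 0 higher out of 16. Of the upstream kinases and factors, 4 were higher and 1 was lower out of 25. Over all probes, 7.15% were higher and 5.84% lower at such a p. The medians of the 4 lists were -0.10, -0.059, -0.049 and 0.0049, all closer to 0 than the -0.43 of the members. In the 17-month cortex, given as a description, the same lists had medians of -0.070, -0.12, -0.034 and -0.12.

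With age in WT whole brain, 7 of 21 other transcription factors rose and 3 fell, where 12.7% of all probes rose and 15.2% fell. The largest rises were those of Egr4 (1.12 ± 0.12), Jund (0.84 ± 0.094), Nr4a2 (0.57 ± 0.098) and the clock gene Per1 (0.52 ± 0.079), and the falls those of Nr4a3 (-0.85 ± 0.14), Crem (-0.49 ± 0.082) and Klf6 (-0.32 ± 0.054). Of 16 feedback regulators 5 rose and 0 fell, headed by Ier3 (0.70 ± 0.16) and Spry4 (0.63 ± 0.11), an inhibitor of receptor tyrosine kinase signalling. Of 22 effectors 6 rose and 2 fell, with the secreted neuropeptide precursor Vgf at 0.86 ± 0.088 and Plk3 at 0.78 ± 0.066 among the rises and Inhba at -0.55 ± 0.081 among the falls. Of 25 upstream kinases and factors 12 rose and 3 fell. The CREB coactivator Crtc1 rose by 0.66 ± 0.099 and Creb1 itself fell by 0.41 ± 0.070.

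In Tg2576 whole brain, 4 of 19 other transcription factors rose with age and 2 fell, where 6.58% of all probes rose and 5.55% fell. Klf2, a zinc finger factor of the vascular endothelium, rose by 1.35 ± 0.11, Egr4 by 0.80 ± 0.12 and Jund by 0.66 ± 0.12, while Crem fell by 0.60 ± 0.092. Of 22 effectors 2 rose and 3 fell, the falls being Ptgs2 (-0.66 ± 0.13), the growth factor Bdnf (-0.58 ± 0.099) and Tiparp (-0.47 ± 0.11), and the rises Vgf (0.84 ± 0.083) and Plk3 (0.47 ± 0.11). Of 16 feedback regulators 1 rose, Nfkbia, by 0.49 ± 0.11. Of 25 upstream kinases and factors 6 rose and 1 fell, with Mef2d at 0.75 ± 0.081 and Crtc1 at 0.68 ± 0.089 ahead. Per1, Egr4, Jund, Vgf, Plk3, Crtc1 and Mef2d rose and Crem fell in both genotypes, but these comparisons were not tested against each other.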

How the data were processed

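Total RNA of 12 cortices and 12 whole brains was hybridized to 1-colour Agilent mRNA arrays, and 24 miRNA arrays of the series were not used here. The scanner files that the authors deposited give spot intensity values of Agilent Feature Extraction 10.7.3.1, with background subtracted and no normalization between arrays. The authors also deposited a log2 table. For at least 99.8% of the probes it equalled the log2 intensity, less a constant near the 75th percentile, to a tolerance of 0.01. In R 4.3.3, outlier spots were left out, spots of a probe were averaged, and the log2 value was reduced by the 75th percentile of the array. Probes that cleared the background on 2 or more arrays in either group were tested with limma 3.58.1 (lmFit, eBayes) over all probes, with Benjamini-Hochberg adjustment at 0.05 and 95% intervals. Standard errors come from limma. Symbols were matched by transcript to a RefSeq gene table. The array files hold signal over background but no read depth, and 3 arrays per group limit the precision. The 75th percentile of the intensity lay between 507 and 824 per array.

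The members and the gene lists were chosen with earlier results of these data known. By rule, the text names the 10 members in every group, the 10 other genes most correlated with their mean, and at most 4 rises and 4 falls per list among genes past the threshold. Marker lists covered excitatory neurons of the cortex, striatum, hippocampus, cerebellum, thalamus, olfactory bulb, choroid plexus, blood, vessel wall, microglia, astrocytes and oligodendrocytes. Alternatives were quantile and median scaling, the authors' log2 table, normexp with an offset of 50, other filters, the mean over probes, 1 model over 24 arrays, a block for the replicate number or for the slide, the t-test of the study's methods with Benjamini-Hochberg adjustment, and leaving out each array. Leaving out the groups that span slides, or the 17-month cortices, was added to the correlations after seeing the data. Code was tested on simulated data.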

Additional observations from a re-analysis of the deposited data

How the results depend on the processing

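For the 3 tested genotype comparisons, the 2 tissue comparisons and the 2 interactions, 0 members passed under every alternative run. With age in WT whole brain, the 3 members called became 5 with median scaling, 1 with no filter and 1 with the replicate block, and 1 to 4 when an array was left out. Of these, 1 was left without the second WT array of either age, namely Egr1. With age in Tg2576 whole brain, the 0 members called became 2 (Fos, lower, and Egr1, higher) with normexp, with the filter on every array and with the mean over all probes of a gene. The methods' t-test called 2 and 0 members in these comparisons. Of 1720 alternative values of single members, 1690 counted as the same, 16 lost a call and 12 gained one. A further 2 uncalled ones moved by more than the spread, and 0 called ones reversed. Among the 1690, 130 belonged to the 17-month cortex, where no threshold applied and a shift below the pooled SD counted as the same. The rest kept their side of the threshold. Uncalled values near 0, such as those of Nr4a1, changed sign in some. In WT whole brain with age, Npas4 was called lower without the third 10-month array, and Egr2 higher without the first 17-month array. The replicate numbers are not known to pair samples: deviations of same-numbered arrays correlated between -0.17 and 0.039 in the 7 comparisons of a pair of groups, and between -0.18 and 0.13 over all pairs of groups. With the replicate block 0 members passed in every other comparison, and the probes called with age went from 10479 to 4760 in WT and from 4598 to 13 in Tg2576 mice. Leaving out an array gave 5919 to 7868 and 42 to 2679 such probes, the lowest without the second 17-month WT array and without the third 10-month Tg2576 array, and slide as a block gave 1860 in Tg2576 mice. With slide as a block, the tissue interaction of Egr2 went from -0.051 to 0.35. Slide could not be fitted as a fixed block for age in WT whole brain or for tissue in either genotype. As a random block for tissue in Tg2576 mice it called 0 members, but no slide held both tissues. All members were well above background on every array.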
